A study of Mus musculus with 10 samples.

Results

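A set of 10 genes of neutrophil recruitment was examined in CT26 tumors, out of 36009 genes in the count table. The set holds Cxcl1, Cxcl2, Cxcl3 and Cxcl5, their receptor Cxcr2, the cytokine Csf3 and its receptor Csf3r, and the granulocyte genes S100a8, S100a9 and Retnlg. The genes were taken by symbol, and all 10 passed the filter on low counts that left 16041 genes for testing. RNA was sequenced from 10 subcutaneous tumors of CT26, a mouse colorectal carcinoma line, grown in female wild-type BALB/c mice. Each tumor was sampled at surgery, while untreated, before a poly(I:C)-loaded hydrogel was laid on the residual tumor. The 10 tumors were selected by the authors by outcome. The 6 responders were tumors of mice with complete regression afterwards, and the 4 non-responders were tumors of mice in which growth was not delayed. The poly(I:C) in the gel is an artificial double-stranded RNA that mimics viral RNA. No age was given for these mice apart from the range that the paper states for all of its mice. The whole series used 1 carcinoma line, and the experiment was run once. The groups differ in an outcome seen later and not in any treatment at sampling.

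Neutrophils are short-lived phagocytes that enter inflamed tissue and many tumors from the blood. Cxcl1, Cxcl2, Cxcl3 and Cxcl5 are chemokines with a glutamate-leucine-arginine (ELR) motif, which draw neutrophils by binding the receptor encoded by Cxcr2. Csf3 encodes G-CSF, the growth factor that drives neutrophil production and survival through the receptor encoded by Csf3r. S100a8 and S100a9 encode the subunits of calprotectin, an abundant calcium- and metal-binding protein of the neutrophil cytosol, and Retnlg encodes a resistin-like secreted protein of mouse granulocytes.

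All 4 chemokine genes lie in 1 cluster on chromosome 5, on the plus strand (GRCm38). In order along it they are Cxcl5 (chr5:90759360-90761624), Cxcl3 (chr5:90786103-90789600), Cxcl1 (chr5:90891241-90893115) and Cxcl2 (chr5:90903871-90905938). S100a8 (chr3:90668978-90670035) and S100a9 (chr3:90692632-90695721) are neighbors on opposite strands. The remaining genes were Cxcr2 (chr1:74153989-74161246), Csf3r (chr4:126024550-126044440), Csf3 (chr11:98701263-98703629) and Retnlg (chr16:48872621-48874496). None of the 10 overlapped another annotated gene. A stretch of sequence upstream of Cxcl1, Cxcl2 and Cxcl3 is shown because these neighboring genes share letters there, and because their levels are compared below. The capitals mark GGGAATTTCC, which has the form of an NF-κB site, and downstream of it ATAAAAG, which resembles a TATA box. NF-κB is a transcription factor of inflammatory signaling. The sequences are from RefSeq on GRCm38.p6, plus strand, 5′ to 3′, at chr5:90891164-90891232 for Cxcl1, chr5:90903792-90903863 for Cxcl2 and chr5:90786018-90786093 for Cxcl3.
Cxcl1: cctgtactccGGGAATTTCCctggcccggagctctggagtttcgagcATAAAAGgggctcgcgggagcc
Cxcl2: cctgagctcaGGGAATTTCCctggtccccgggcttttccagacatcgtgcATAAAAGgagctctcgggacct
Cxcl3: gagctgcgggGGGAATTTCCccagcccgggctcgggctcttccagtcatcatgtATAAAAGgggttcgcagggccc
The first base of GGGAATTTCC was 71, 97 and 73 bases before the RefSeq start of Cxcl1, Cxcl2 and Cxcl3, and 27, 30 and 34 bases separated it from ATAAAAG. On either strand, GGGAATTTCC was found in 28 of 32851 windows of 250 bases before a start, or 0.0852%. Of the 8 genes of the set that had a window, these 3 held it. The ATAAAAG letters were searched on the strand of the gene only and were found in 3.01% of windows. Of the set, S100a8 also held ATAAAAG, 29 bases before its start, without GGGAATTTCC. The motifs were picked after these promoters were read, and a match describes letters and not binding.

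Libraries held between 23374649 and 38042544 estimated counts, and sampling noise was exceeded in all 45 comparisons of 1 library with another. The set was not read as a measure of neutrophil content, because the neutrophil genes differed widely in level and several were near 0. The low counts of the granule genes below were likewise not read as neutrophil number. Ly6g, the usual surface marker of mouse neutrophils, had 6 counts over all 10 libraries and at most 1 in any. Elane, which encodes neutrophil elastase, had between 0 and 1 count per tumor, and the secondary granule genes Camp, Ngp and Ltf had between 0 and 5, 0 and 13, and 3 and 20. Cxcr1, which encodes the sister receptor of Cxcr2, had between 0 and 6. Other genes of the same lists were well measured, with 339 to 659 counts per tumor of Il1r2, the decoy receptor gene for interleukin 1, 103 to 282 of Clec4d, 78 to 231 of Clec4e, 36 to 80 of Trem1 and 96 to 728 of Lcn2, all named after their values were seen. In RNA from whole tumor pieces, fewer cells of a type and less RNA per cell cannot be told apart.

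Levels between genes were compared as CPM (counts scaled to a common library size) divided by the length in kilobases of the longest coding transcript. By the mean of 10 tumors, S100a9 was highest at 43.5 CPM per kb, and Cxcl5 followed at 25.0. Cxcl1 at 18.9, S100a8 at 17.0 and Csf3r at 16.2 were close together. Their order was not stable from tumor to tumor: Cxcl1 exceeded S100a8 in 6 of 10 tumors and S100a8 exceeded Csf3r in 5 of 10. Cxcr2 at 3.12 CPM per kb lay below Csf3r in 10 of 10 tumors. Cxcl2 at 1.88, Cxcl3 at 1.41, Retnlg at 1.15 and Csf3 at 0.678 were lowest. Cxcl3 exceeded Retnlg in 6 of 10 tumors. Among the ligands, then, Cxcl5 and Cxcl1 were measured at higher levels per length than Cxcl2 and Cxcl3. Low counts limited Retnlg (8 to 47 per tumor), Csf3 (13 to 64) and Cxcl3 (13 to 83). Reads can also be split between genes with shared sequence: Cxcl2 and Cxcl3 shared 80 stretches of 31 bases, which were 4.37% and 8.11% of the stretches in each. Retnlg shared 5.51% with Retnla, while 12.2% for Cxcr2 and 24.5% for Csf3r were shared with many genes. S100a8, S100a9, Cxcl1 and Csf3 shared none.

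No gene of the set passed the test between responders and non-responders. By edgeR's quasi-likelihood test, 0 of 10 had an adjusted p under 0.05, against 8.06% of all genes tested (4.71% higher and 3.35% lower in responders). At an unadjusted p under 0.05 there was 1, Csf3r, against 29.1% of all genes. DESeq2 and limma-voom also called 0 of 10. No gene had groups that did not overlap, against 10.4% of all genes. The estimates were split, with 5 higher and 5 lower in responders and a median log2 fold change of 0.09, against -0.01 over all genes tested. With 10 genes, a count of 0 is near a background of 8.06% and sets the genes apart in neither direction.

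The receptor gene Csf3r came nearest to a difference. It was at 37.0, 49.9, 62.2 and 38.5 CPM in non-responders 1 to 4, and between 50.4 and 78.7 with a median of 58.9 in the 6 responders. Only non-responder 3 reached into the range of the responders. The means were 62.8 ± 12.8 CPM (SD, n = 6) and 46.9 ± 11.7 (SD, n = 4). On the log2 scale responders were higher by 0.42 (SE 0.18, edgeR unadjusted p = 0.0336, adjusted p = 0.136). The fold was 1.34 with a 95% interval, unadjusted for the number of genes, from 1.03 to 1.75. The exact permutation test of log2 CPM over all 210 splits of the tumors gave p = 0.0810, two-sided. Without non-responder 3 the groups no longer overlapped, and the edgeR adjusted p was 0.0725, the lowest of the 10 fits that left out 1 tumor. The highest was 0.311, without non-responder 1, and the log2 estimate ran from 0.33 to 0.59 over these fits. Csf3r passed the threshold in 0 of the 10. Its ligand gene Csf3 was low throughout, at 0.848, 1.57, 1.17 and 0.603 CPM in the 4 non-responders and between 0.420 and 2.13 (median 0.705) in responders. Both the highest and the lowest tumor for Csf3 were responders, and the difference was -0.22 on the log2 scale (SE 0.46, edgeR adjusted p = 0.788).

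**Figure D1:**
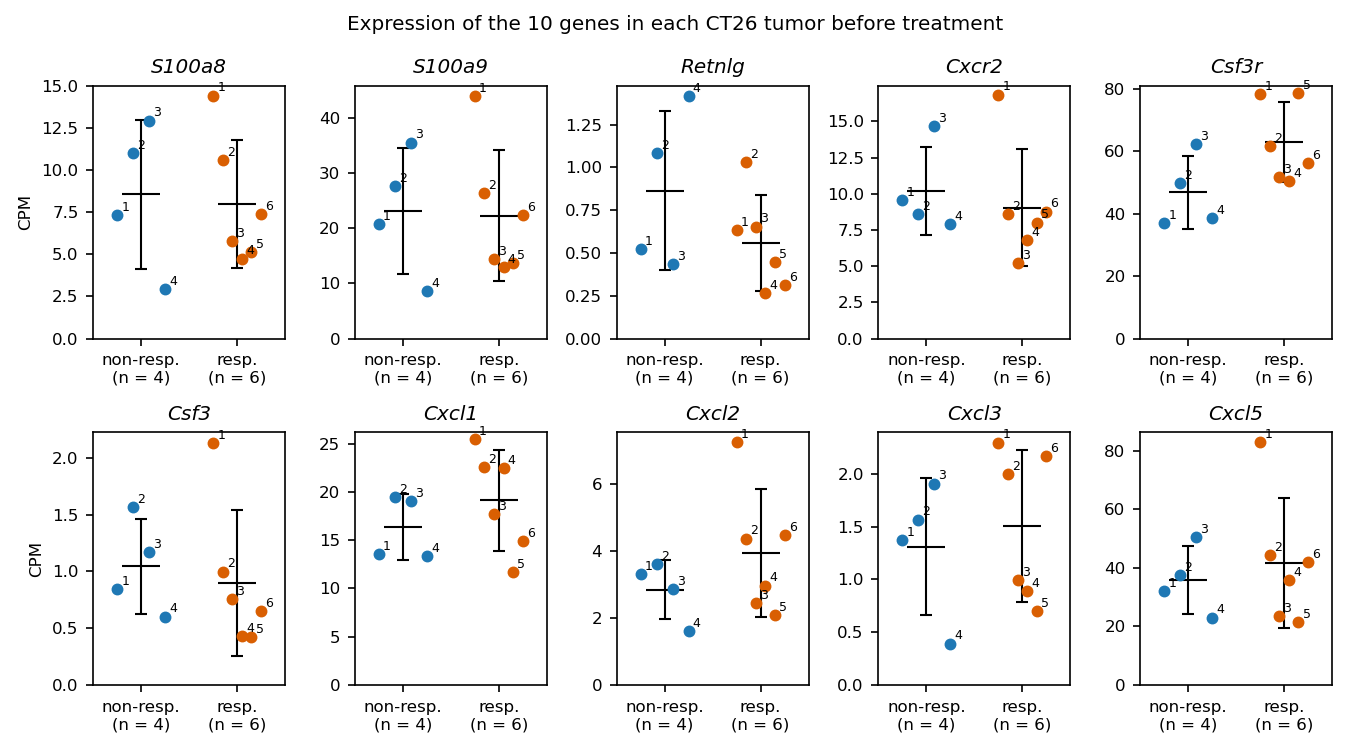
Expression in CPM (linear axis from 0) of the 10 genes in each tumor, in non-responders (blue, n = 4) and responders (orange, n = 6), with tumor numbers beside the points and bars for mean ± SD. The groups overlap in every panel, and responder 1 is the highest point in 8 of the 10.

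The chemokine ligand genes showed the same overlap. Cxcl5, which encodes LIX, was at 32.1, 37.5, 50.6 and 22.98 CPM in the 4 non-responders and between 21.4 and 83.0 (median 38.8) in responders. Responder 1 alone lay far above the other tumors, and the group means of 41.7 ± 22.3 (SD, n = 6) and 35.8 ± 11.5 (SD, n = 4) differed by less than the spread. Cxcl1, which encodes KC, was at 13.6, 19.5, 19.1 and 13.3 CPM in non-responders and between 11.7 and 25.5 (median 20.1) in responders. Its lowest tumor, responder 5, and its highest, responder 1, were both responders. Cxcl2, which encodes MIP-2, was at 3.31, 3.62, 2.86 and 1.60 CPM in non-responders and between 2.10 and 7.26 (median 3.67) in responders. Cxcl3 was at 1.37, 1.57, 1.91 and 0.392 CPM in non-responders and between 0.699 and 2.30 (median 1.498) in responders. For both, non-responder 4 was lowest and responder 1 highest. The log2 fold changes of Cxcl1, Cxcl2, Cxcl3 and Cxcl5 were 0.23 (SE 0.21), 0.47 (SE 0.35), 0.23 (SE 0.45) and 0.22 (SE 0.35). Their edgeR adjusted p-values were 0.512, 0.397, 0.777 and 0.719. The 95% interval of the fold ran from 0.814 to 2.37 for Cxcl2 and from 0.849 to 1.61 for Cxcl1, so a fold of 2 lay outside the interval of Cxcl1 and inside that of Cxcl2.

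The receptor gene Cxcr2 and the granulocyte genes had estimates below 0, each with an interval that covered 0. Cxcr2 was at 9.57, 8.59, 14.7 and 7.90 CPM in non-responders and between 5.23 and 16.8 (median 8.31) in responders, a log2 difference of -0.17 (SE 0.29, edgeR adjusted p = 0.746). S100a9 was at 20.7, 27.7, 35.5 and 8.54 CPM in non-responders and between 12.9 and 44.0 (median 18.4) in responders. Non-responder 4 was the lowest tumor for S100a9, and the other three non-responders lay above the responder median. The means were 22.3 ± 11.9 CPM (SD, n = 6) and 23.1 ± 11.4 (SD, n = 4). The log2 difference was -0.05 (SE 0.41), the adjusted p by edgeR 0.953 and the 95% interval of the fold 0.515 to 1.82. S100a8 was at 7.35, 11.01, 12.96 and 2.96 CPM in non-responders and between 4.75 and 14.4 (median 6.59) in responders, a log2 difference of -0.09 (SE 0.41, edgeR adjusted p = 0.910). The sign of these small estimates turned when single tumors were left out, for S100a9 in 5 and for S100a8 in 4 of 10 fits. Retnlg had the largest estimate, -0.67 (SE 0.42, edgeR adjusted p = 0.313). It was at 0.525, 1.08, 0.434 and 1.42 CPM in non-responders and between 0.264 and 1.03 (median 0.540) in responders. Here the highest tumors were non-responders 4 and 2, and responder 2 lay close behind them.

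The spread between tumors was wide within both groups. The highest tumor exceeded the lowest 2.13-fold for Csf3r, 2.17-fold for Cxcl1, 5.15-fold for S100a9 and 5.86-fold for Cxcl3. Responder 1 was the highest of the 10 tumors for 8 genes and among the highest 3 for 9. Non-responder 4 was lowest for 4 genes and among the lowest 3 for 9, while for Retnlg it was the highest tumor. Responder 5 was lowest for 3 genes and among the lowest 3 for 7, but highest for Csf3r. The responders thus held both a tumor among the highest 3 for 9 genes and a tumor among the lowest 3 for 7. Without responder 1 the log2 fold change of Cxcl5 was -0.10, and that of Cxcr2 was -0.44 with an adjusted p of 0.192 by edgeR.

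**Figure D2:**
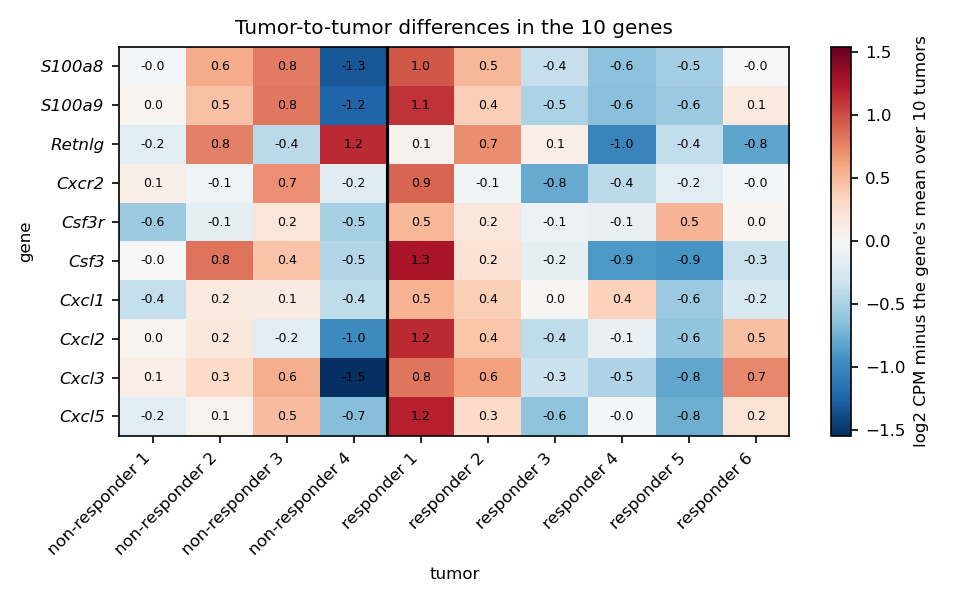
Heat map of log2 CPM minus each gene's mean over 10 tumors, with 1 row per gene, 1 column per tumor and a line between the 4 non-responders and the 6 responders. Responder 1 is red in every row and the highest tumor for 8 genes, and non-responder 4 is blue in every row but that of Retnlg.

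Pairs of a ligand and its receptor, and the calprotectin subunits, were then followed across the 10 tumors. S100a8 and S100a9 moved together almost without deviation (Pearson r = 0.989 and Spearman rho = 1.0, each with adjusted permutation p = 6e-05, the smallest the permutations can give over 6 pairs). Among responders alone, r was 0.984 (exact permutation p = 0.00139, n = 6), and it was 0.983 without the 2 tumors farthest from the median of S100a8. The S100a9 count was between 2.48 and 3.04 times the S100a8 count in responders and between 2.51 and 2.89 times in non-responders. Cxcl5 and Cxcr2 also rose and fell together (r = 0.803, adjusted permutation p = 0.0183; rho = 0.733, adjusted p = 0.0411). Within responders r was 0.857 (exact permutation p = 0.0292, adjusted p = 0.0667). Without the 2 tumors farthest from the median of Cxcl5, r was 0.713 over 8 tumors (permutation p = 0.0405) and rho 0.643 (permutation p = 0.0962). The value of r leaned most on responder 1, without which it was 0.640 (adjusted permutation p = 0.153). Without non-responder 3, r was 0.797, little changed, with an adjusted permutation p of 0.0517. Of the 10 fits that left out 1 tumor, 8 stayed past the threshold.

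The other ligand genes had a lower Pearson r with Cxcr2 over the 10 tumors, though by rank Cxcl3 was at 0.758 where Cxcl5 was at 0.733. For Cxcl3 the values were r = 0.567 (adjusted permutation p = 0.135) and rho = 0.758 (adjusted permutation p = 0.0411) with Cxcr2, and r was 0.657 in responders and 0.753 without its 2 farthest tumors. Cxcl2 had r = 0.566 (adjusted permutation p = 0.135) and rho = 0.624 (adjusted permutation p = 0.0928). Its r was 0.843 in responders (exact permutation p = 0.0333, adjusted p = 0.0667) but 0.241 over all groups without its 2 farthest tumors, non-responder 4 and responder 1. Left out singly, responder 1 took r to 0.232 and non-responder 4 to 0.602, so the value over 10 tumors rested on responder 1. Cxcl1 and Cxcr2 had r = 0.320 (adjusted permutation p = 0.444) and rho = 0.285 (adjusted permutation p = 0.514), with 0.383 for r in responders and -0.06 without the 2 farthest tumors. Csf3 and Csf3r had r = 0.220 (adjusted permutation p = 0.540) and rho = 0.0788 (adjusted permutation p = 0.839), with 0.396 for r in responders and -0.10 without the 2 farthest. Adjustment was over the 6 pairs for each coefficient, and all p-values were two-sided. They were computed against unrelated values, although genes measured in whole tumor pieces share tissue makeup. Among genes with a mean of at least 1 CPM, the 5 with the highest r with Cxcr2 had 0.885 to 0.922, and none was in the set. Whether a ligand and its receptor are linked in these tumors was not tested. The non-responders were too few, at 4, for a value of their own.

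**Figure D3:**
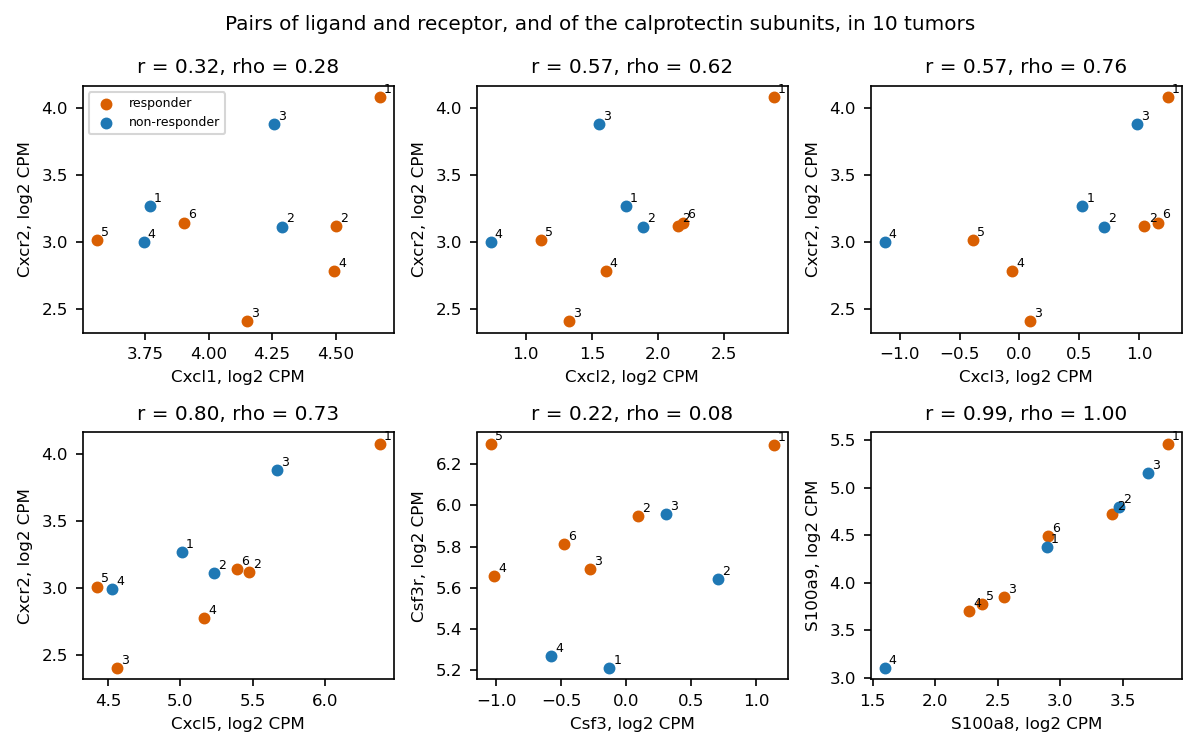
Scatter plots of log2 CPM for the 6 pairs of genes, with 1 point per tumor (orange, responders; blue, non-responders), tumor numbers beside the points, and Pearson r and Spearman rho above each panel. S100a8 and S100a9 lie on 1 line (r = 0.99), Cxcl5 and Cxcr2 follow more loosely (r = 0.80), and Csf3 and Csf3r do not line up (r = 0.22).

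Across 13733 genes with a mean of at least 1 CPM, the nearest patterns to S100a9 over the 10 tumors were S100a8 (r = 0.989), Cxcl3 (0.924), Aldoa (0.919), Mrgpra2b (0.907) and Gm19221 (0.895). Mrgpra2b is a receptor gene known from mouse neutrophils, and Aldoa encodes a glycolytic enzyme. The nearest 5 to Cxcl5 were Htr2a (0.930), R3hdm1 (0.909), Spidr (0.904), Ift52 (0.902) and Cxcl2 (0.883). For Csf3 they were Gm5148, Gm7331, 5730507C01Rik, Zmym3 and, at r = 0.839, S100a9. The lists of Cxcr2 (AC163399.1, Ccdc126, Lhx6, Acat3 and Gm28710, r of 0.885 to 0.922) and Cxcl1 (Fam149a, Ccdc130, Itga6, Vmn2r95 and Wbp4, r of 0.874 to 0.897) held no other gene of the set. The points are tumors and share library depth and tissue makeup, and the genes were picked as the highest of many, so no p is given.

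Other genes, in 6 lists drawn up around neutrophil biology but not restricted to neutrophils, did hold differences. The lists held 78 such genes, and those too low to test included Ly6g, Elane, Camp, Ngp, Ltf and Cxcr1. Of the 62 tested, 12 passed the threshold, or 19.4%, against 8.06% of all genes, with 10 higher and 2 lower in responders. The lists were drawn up with earlier results of these data known, so this excess is a description and not a test. Of the 8 neutrophil granule genes tested, 2 were higher and 1 lower (median log2 fold change 0.20, against -0.01 over all genes tested). Whether called or not, 4 of their estimates were above 0 and 4 below. Of the 20 mature neutrophil genes, 4 were higher (median 0.32), with 17 estimates above 0 and 3 below. Of the 7 genes of the other ELR chemokines, their receptors and the retention axis, 1 was higher (median 0.22). In the list headed upstream cytokines and receptors, 2 of 15 genes were higher and 1 lower (median 0.29). Of the 5 granulocyte transcription factor genes, 1 was higher (median 0.38). Of the 8 S100 and resistin relatives, 0 passed and 2 had an unadjusted edgeR p under 0.05, against 29.1% of all genes (median -0.06).

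The difference with the smallest p in these lists was in Cxcl12, whose product holds neutrophils in the bone marrow through the receptor CXCR4. Cxcl12 was at 28.4, 21.4, 32.5 and 22.7 CPM in non-responders and between 41.4 and 87.2 (median 64.7) in responders. Every responder lay above every non-responder, a log2 difference of 1.26 (SE 0.20, edgeR adjusted p = 0.0207). Cxcr4 itself differed by 0.21 on the log2 scale (SE 0.11), with an edgeR adjusted p of 0.212, and the scavenging receptor genes Ackr3 and Ackr1 had 0.35 (adjusted p = 0.131) and 0.48 (adjusted p = 0.159). The remaining ELR ligand genes were barely measured, with 8 to 21 counts of Ppbp and 0 to 5 of Cxcl15 per tumor.

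The formyl peptide receptor genes Fpr1 and Fpr2, which encode sensors of bacterial and mitochondrial peptides on phagocytes, were both higher in responders. Fpr1 was at 4.04, 8.18, 7.20 and 3.05 CPM in non-responders and between 10.4 and 23.5 (median 13.7) in responders, a log2 difference of 1.44 (SE 0.33, edgeR adjusted p = 0.0330). Fpr2 was higher by 1.08 (SE 0.24, edgeR adjusted p = 0.0321) and Wfdc17, which encodes a small secreted protein, by 0.68 (SE 0.15, adjusted p = 0.0330). Mmp25, which encodes a membrane-bound metalloproteinase and was named after its value was seen, was higher by 0.63 (SE 0.17, edgeR adjusted p = 0.0492). Responders and non-responders did not overlap for Fpr1, Fpr2 and Mmp25 and overlapped for Wfdc17. Cd177, a neutrophil surface gene, had an estimate on the other side, -0.72 (SE 0.34, edgeR adjusted p = 0.192).

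Among granule genes, Lyz2 (lysozyme) was higher in responders by 0.47 (SE 0.10, edgeR adjusted p = 0.0288) and Cybb (the NADPH oxidase subunit gp91phox) by 0.80 (SE 0.19, adjusted p = 0.0360). Mmp9, which encodes gelatinase B, was instead lower in responders. It was at 348, 211, 204 and 310 CPM in non-responders and between 124 and 203 (median 168) in responders, a log2 difference of -0.68 (SE 0.18, edgeR adjusted p = 0.0443). The nearest tumors of the groups, responder 2 and non-responder 3, were 203.0 and 203.8 CPM. Lcn2, which encodes neutrophil gelatinase-associated lipocalin, was at 4.36, 7.69, 8.11 and 2.90 CPM in non-responders and between 4.92 and 24.2 in responders (0.88, SE 0.45, edgeR adjusted p = 0.222). Responder 1 was the highest tumor for Lcn2, as for most of the set. Mpo, which encodes myeloperoxidase, had 9 to 16 counts per tumor and an estimate of -0.42 (SE 0.24, edgeR adjusted p = 0.280).

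In the list headed upstream cytokines and receptors, the GM-CSF receptor gene Csf2ra was higher in responders by 0.75 (SE 0.13, edgeR adjusted p = 0.0229). The macrophage growth factor gene Csf1 was higher by 0.38 (SE 0.07, edgeR adjusted p = 0.0264). Whether the listed genes act on the chemokines or on Csf3 in these tumors was not tested. Il1r1, the signaling receptor gene for interleukin 1, was lower in responders at -0.34 (SE 0.07, edgeR adjusted p = 0.0245). Il1b had an estimate of 0.40 (SE 0.21, adjusted p = 0.221), Il6 of -0.21 (SE 0.33, adjusted p = 0.712) and Csf2 of 0.05 (SE 0.45, adjusted p = 0.953) in the same edgeR fit. Il17a, a cytokine gene known to induce Csf3 and ELR chemokines, had between 0 and 3 counts per tumor. Spi1, which encodes the myeloid transcription factor PU.1, was higher in responders by 0.47 (SE 0.10, edgeR adjusted p = 0.0318), while Cebpa and Gfi1 had 0.38 (adjusted p = 0.113) and 0.81 (adjusted p = 0.141). Of the calprotectin relatives and receptors, S100a11 had -0.21 (adjusted p = 0.0583), Tlr4 0.26 (adjusted p = 0.120) and S100a6 -0.12 (adjusted p = 0.292).

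**Figure D4:**
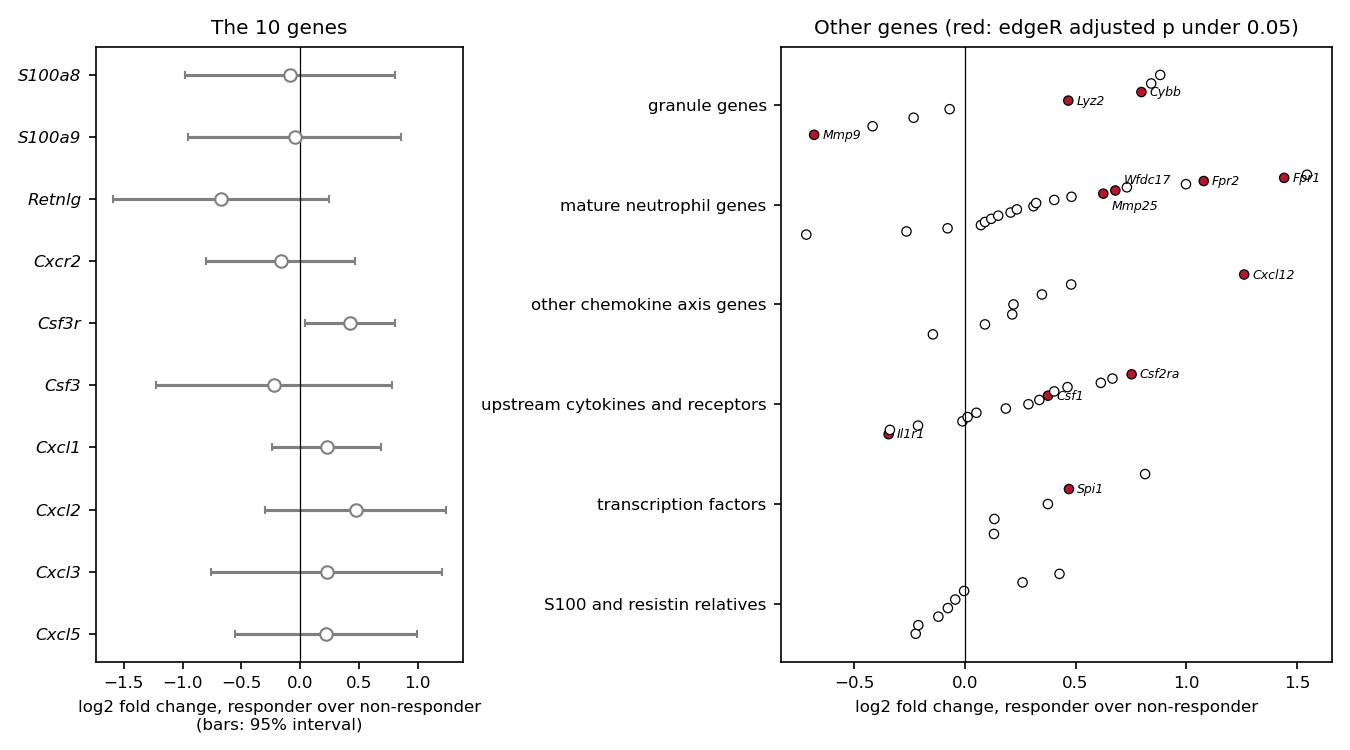
Left, log2 fold change of responders over non-responders for the 10 genes with 95% intervals (edgeR). Right, log2 fold change of each of the 62 other genes tested, 1 point per gene by list (Il1b is in 2 lists), with the 12 past an adjusted p of 0.05 filled and named. Every interval on the left but that of Csf3r covers 0, and the filled points on the right include Cxcl12, Fpr1 and Fpr2 on the higher side and Mmp9 and Il1r1 on the lower.

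These 12 calls were sensitive to single tumors in number and not in direction. Each was kept in between 2 and 7 of the 10 fits that left out 1 tumor, and none changed sign. The number of calls in the lists moved with the number over all genes, which was 1293 with all tumors. It was 0 without non-responder 1, non-responder 4 or responder 3, when 16, 0 and 17 genes were called in all. It was 5 without non-responder 3 or responder 2 (366 and 244 in all) and 6 without responder 1 or responder 5 (553 and 412 in all). It was 9 without responder 6 (735 in all), 15 without responder 4 (1619 in all) and 17 without non-responder 2 (1897 in all). Markers of other cell types moved with the same groups. Of 9 monocyte and macrophage markers 5 were higher in responders and 0 lower, with a summed level of 1967 to 2861 CPM in responders and 1522 to 1930 in non-responders, and C1qa was the most abundant. Lyz2, Cybb, Fpr1, Fpr2, Csf2ra and Spi1 are used by monocytes and macrophages as well as by neutrophils, and the part of those cells in the result was not tested. The cell source of the other calls, among them Cxcl12, Csf1, Il1r1 and Mmp9, was not tested either. Of 6 mast cell markers 2 were higher (summed level 50.1 to 175 CPM against 26.5 to 58.0, Mcpt4 the most abundant) and of 5 skeletal muscle markers 2 were higher (317 to 1041 CPM against 288 to 374, Acta1 the most abundant). The eosinophil, lymphocyte, keratinocyte, fibroblast, endothelial, platelet, erythroid, adipocyte and colon epithelial lists held 0 calls by edgeR. In that order, 4, 7, 2, 6, 6, 4, 3, 4 and 5 of their genes were tested. An unadjusted edgeR p under 0.05 was reached by 13 of these genes, a share near the 29.1% of all genes tested. Of these 13, 4 were adipocyte markers (all 4 tested, median log2 fold change 2.25, summed level 5.26 to 42.8 CPM in responders against 0.727 to 11.9), 4 were lymphocyte markers (of 7 tested, median 1.01, 114 to 254 CPM against 69.2 to 126) and 3 were colon epithelial markers (of 5 tested, median -0.74, 22.9 to 48.4 CPM against 45.1 to 89.9). The keratinocyte list bears on S100a8 and S100a9, which stressed skin also expresses: its summed level was 3.93 to 5.57 CPM in responders and 3.21 to 12.1 in non-responders, highest in non-responder 2, and 8 of its 10 genes were too low to test. CT26 carries a carcinoma label, but of its epithelial markers Epcam, Krt8, Krt18 and Vil1 had at most 19 counts per tumor, with Krt20 the most abundant of that list.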

How the data were processed

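PolyA RNA from 10 tumors was sequenced as paired ends. The authors estimated transcript abundance with Kallisto, summed it to genes with tximport on mm10 (GRCm38), and deposited estimated counts (expected counts, not scaled to depth). The tximport scaling, strand setting and annotation release are not given in the sources used here. The response label set the groups. Tumor numbers follow accession order and pair nothing. No batch was given.

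Counts were rounded, filtered by filterByExpr (minimum count 10, minimum total count 15), scaled by TMM and tested in edgeR 4.0.16 (R 4.3.3) by the quasi-likelihood test, two-sided, with Benjamini-Hochberg adjustment over 16041 genes and a threshold of 0.05. The test was checked on simulated data. SE is the log2 fold change over the square root of F. CPM is relative to the TMM-scaled total of the tested genes, and log2 CPM has a prior count of 2. Correlations used 100000 permutations over 10 tumors and all 720 orders of 6 responders. Gene coordinates and transcripts are from GENCODE on GRCm38. Alternatives were DESeq2 1.42.0, limma 3.58.1 (voom), other scalings, filters, another prior count, and leaving out each tumor. The named genes are the 10 of the set, the 3 of smallest p in each list, a further fixed list whatever the p, the 5 nearest patterns to 5 genes, and the most abundant gene of marker lists. The genes and lists were chosen with earlier results of these data known.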

Additional observations from a re-analysis of the deposited data

How the results depend on the processing

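Under other scalings (DESeq2 size factors, upper quartile), other filters and DESeq2, all 10 genes kept their direction and none passed the threshold. Under limma-voom, 0 passed and the estimates of S100a8 and S100a9 turned to 0.060 and 0.051. DESeq2 called 2573 genes in all and 19 in the pathway lists, against 1293 and 12 by edgeR. Leaving out each tumor gave 0 to 1897 calls over all genes, 0 to 17 in the lists, 0 to 1 of the 10 genes without overlap between groups, and 1 to 2 pairs past the threshold of r. The estimates that turned sign ranged from -0.38 to 0.18 for S100a8, -0.36 to 0.24 for S100a9, -0.67 to 0.049 for Csf3, -0.10 to 0.43 for Cxcl5, -0.44 to 0.059 for Cxcr2 and -0.10 to 0.47 for Cxcl3. The r with Cxcr2 ranged from -0.012 to 0.464 for Cxcl1, and that of Csf3 with Csf3r from -0.13 to 0.577. Without the difference between group means, r of Cxcl2 and Cxcr2 was 0.706 (adjusted permutation p = 0.0430). The cause of these changes was not tested. No paired analysis was possible because the replicate numbers follow accession order only. Low counts limit Retnlg, Csf3 and Cxcl3, and 6 against 4 tumors limit all 10 genes.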

Other observations

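The balance of the receptor transcripts varied between tumors. The Csf3r count was 4.65 to 9.84 times the Cxcr2 count in responders (median 7.28) and 3.86 to 5.81 times in non-responders. This ratio was chosen after the values were seen, and no test was run. Responders 2 to 6 had a higher Csf3r count per Cxcr2 count than any non-responder, and responder 1, at 4.65, lay among the non-responders. The Cxcl1 count was 3.32 to 7.57 times the Cxcl2 count in responders and 4.10 to 8.34 times in non-responders, with the groups overlapping.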
